A study of Homo sapiens with 16 samples.

Results

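HepG2 cells deprived of histidine were exposed to PD98059, an inhibitor of the kinase MEK, or to its solvent DMSO, and gene expression was compared between these conditions across all named genes. The comparison took the 4 arrays titled for PD98059 without histidine minus the 4 arrays titled for DMSO without histidine, which made up 8 of the 16 arrays of the series. The remaining 8 arrays, 4 with PD98059 and 4 with DMSO, came from complete medium and served to show where the drug effect differed between media. HepG2 is an established human hepatoma line that retains many hepatocyte functions. Every culture was pretreated for 1 h with DMSO or PD98059 and then kept for 8 h in Dulbecco's modified Eagle's medium, either complete or lacking histidine, with the inhibitor still in the medium of treated cultures. The dose was 2.5 uM per the label protocol, and the sample labels print it with another unit, read here as a lost micro sign. Each group held 4 arrays made from independent incubations, per the labels. All values came from 1 line, 1 dose and 1 time point, so they describe this hepatoma line and not liver tissue.

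MEK activates the kinases ERK1 and ERK2, which phosphorylate transcription factors such as ELK1 and thereby switch on immediate-early genes, among them EGR1 and FOS. ERK also induces its own inhibitors, the dual-specificity phosphatases, Sprouty and Spred proteins, so their transcripts are widely read as a measure of MEK output. Cells that lack an essential amino acid activate the kinase GCN2 (gene EIF2AK4), which phosphorylates eIF2 and favours translation of the transcription factor ATF4, an inducer of genes for amino acid synthesis, transport and tRNA charging.

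Expression is given as the log2 value of the deposited table, and a change is the mean log2 value with PD98059 minus that with DMSO, with the standard error of the fit after ±. Genes were called at an adjusted p under 0.05 (limma, Benjamini-Hochberg over 22464 genes), and "rose" and "fell" are used of called genes. Array medians lay between 6.20 and 6.28. Replicate 3 of PD98059 without histidine deviated most from its group mean, with a root mean square deviation of 0.111 log2 units, while the other 15 arrays lay between 0.0496 and 0.0760, and the counts over all genes are also given without it. Of 10 hepatocyte markers, 8 were measured, and their group means lay between 8.38 and 13.7 with DMSO and between 8.24 and 13.7 with PD98059, all above the level of the median gene. Among 10 measured markers of leukocytes, endothelium and stellate cells, CD68 and COL1A1 were above the median gene. The mean of the hepatocyte list ran from 10.987 to 11.044 over the DMSO arrays and from 11.051 to 11.134 over the PD98059 arrays. These ranges did not overlap, and their part in the results was not tested. The hepatocyte markers did not move together: FGB, APOA1 and ALB rose by 0.37, 0.26 and 0.12. AFP, SERPINA1, APOB, AHSG and TTR were not called, at 0.08, 0.002, -0.01, -0.04 and -0.14. The other 3 lists overlapped, at 6.544 to 6.573 against 6.497 to 6.61 for leukocytes, 6.16 to 6.243 against 6.125 to 6.282 for endothelium and 5.504 to 5.57 against 5.439 to 5.592 for stellate cells. HNF4A, TF and COL3A1 were not analysed here. In a bulk culture, fewer cells of a kind and less RNA per cell cannot be told apart.

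Without histidine, PD98059 lowered a small set of genes steeply and raised a smaller set less steeply. In all, 5492 genes were called, or 24.4% of those tested, with 3034 higher (13.5%) and 2458 lower (10.9%). A change of at least 1.5-fold was found for 181 called genes (0.806%), 123 of them lower (0.548%) and 58 higher (0.258%), and 30 genes fell at least 2-fold (0.134%) while 3 rose as much (0.0134%). The median change of all genes was -0.006, and 5% of genes lay below -0.203 and 5% above 0.223. The lowest change was -2.60 and the highest 1.16. Without replicate 3 of PD98059 without histidine, 7316 genes were called, 3756 higher and 3560 lower, and 79 were at least 1.5-fold higher.

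In complete medium the same drug gave 3218 calls (14.3%), 1705 higher (7.59%) and 1513 lower (6.74%). The drug comparisons in the 2 media shared no array, although the fit pooled their spread. Of the genes that fell without histidine, 1085 also fell in complete medium, which was 44.1% of the former and 71.7% of the latter. Another 1254 genes rose in both, which was 41.3% of those that rose without histidine and 73.5% of those that rose in complete medium. Opposite calls were rare: 39 genes fell without histidine and rose in complete medium, and 20 did the reverse. The difference between the drug effects was itself called for 1289 genes (5.74%), 654 in the direction of a higher value without histidine (2.91%) and 635 of a lower one (2.83%). That count was 3145 without replicate 3 of PD98059 without histidine and 782 with arrays shifted to the same median.

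**Figure D1:**
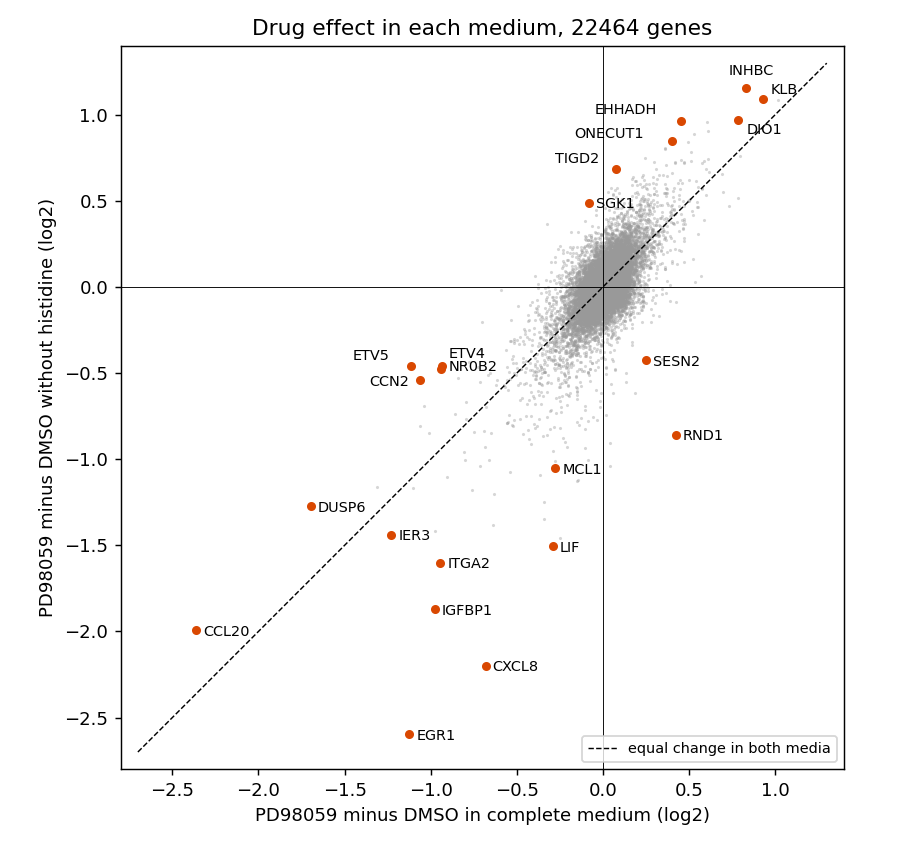
Log2 change with PD98059 in complete medium (x axis) against that without histidine (y axis) for 22464 genes (grey), with named genes described in the text in orange and a dashed line where both are equal. EGR1, CXCL8 and LIF lie far below the line, ETV5, CCN2 and DUSP6 lie above it, and RND1 and SESN2 have opposite signs in the 2 media.

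EGR1, an immediate-early zinc finger factor, had the lowest change of all genes. Its log2 level was 11.43, 11.48, 11.36 and 11.46 on the DMSO arrays and 8.73, 8.93, 8.81 and 8.87 on the PD98059 arrays, so the groups lay more than 2 units apart. It fell by 2.60 ± 0.048 (6.05-fold, adjusted p = 7.67e-15). In complete medium EGR1 started much lower, at 7.91 ± 0.098 (SD, n = 4), and fell by 1.12 there, and the difference between the drug effects was -1.47 ± 0.067 (adjusted p = 5.34e-09). Even so, the level with PD98059 and no histidine, 8.84 ± 0.084 (SD, n = 4), stayed above that of DMSO in complete medium.

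The chemokine gene CXCL8, which encodes interleukin-8, came next. Its levels were 8.96, 8.83, 8.77 and 8.59 with DMSO and 6.62, 6.68, 6.52 and 6.52 with PD98059, again without overlap. CXCL8 fell by 2.20 ± 0.061 (4.59-fold, adjusted p = 1.1e-12), to about the level of 6.66 ± 0.051 (SD, n = 4) measured with DMSO in complete medium. In that medium it fell by 0.68, a difference of -1.52 ± 0.086 between the media (adjusted p = 3.21e-08).

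The promoters of these genes are shown because they are the lowest genes and because both hold sites read by factors downstream of ERK or NF-kB. Each line gives the 250 bases before the RefSeq start site (GRCh38.p14, plus strand, 5′ to 3′), for EGR1 at chr5:138465229-138465478 and for CXCL8 at chr4:73740319-73740568. Capitals mark CArG boxes, the binding sequence of serum response factor, in EGR1, and an AP-1 site (TGACTCA) followed by an NF-kB site (GGAATTTCC) in CXCL8.
EGR1: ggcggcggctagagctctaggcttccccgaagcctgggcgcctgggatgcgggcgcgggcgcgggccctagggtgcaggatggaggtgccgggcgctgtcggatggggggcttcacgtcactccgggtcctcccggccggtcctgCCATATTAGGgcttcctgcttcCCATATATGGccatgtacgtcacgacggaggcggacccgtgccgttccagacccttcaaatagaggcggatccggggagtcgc
CXCL8: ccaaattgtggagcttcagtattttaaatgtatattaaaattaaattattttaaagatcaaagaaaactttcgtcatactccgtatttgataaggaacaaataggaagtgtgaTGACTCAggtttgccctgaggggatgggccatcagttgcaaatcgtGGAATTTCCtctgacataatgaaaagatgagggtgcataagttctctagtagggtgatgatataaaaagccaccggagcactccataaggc
The CArG boxes of EGR1 began 105 and 83 bases before the start site, and the sites of CXCL8 began 137 and 91 bases before it. Exact letters were searched on both strands of this 250-base window in 15247 genes with a RefSeq promoter, of which 93 were genes at least 1.5-fold lower and 49 at least 1.5-fold higher, and each motif was counted whether or not it overlapped another. A CArG box was present in 4.3% of the lower genes, 2.04% of the higher genes and 1.15% of all genes. The AP-1 letters were in 4.3% of the lower genes against 3.4% of all, and GGAATTTCC in 3.23% against 0.407%. The cAMP response element TGACGTCA was in 5.38% against 2.31%, the ETS letters CCGGAAGT in 3.23% against 4.87%, and the C/EBP-ATF letters TGATGNAA in 3.23% against 2.34%. Apart from the CArG box, none of the searched motifs was found among the 49 higher genes. These shares rest on 3 to 5 of the lower genes per motif and, for the CArG box, on 1 of the higher genes, and they were not tested.

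CCL20 and IGFBP1 had the next lowest changes. CCL20, a chemokine for CCR6-bearing lymphocytes, had levels of 11.63, 11.58, 11.46 and 11.55 with DMSO and 9.33, 9.74, 9.50 and 9.67 with PD98059. It fell by 1.99 ± 0.088 (adjusted p = 1.26e-10). Unlike CXCL8 it fell by at least as much in complete medium, by 2.36, and the difference of 0.37 was not called (adjusted p = 0.108). IGFBP1, a hepatic secreted protein that binds insulin-like growth factors, went from 12.20, 12.08, 11.99 and 11.99 to 10.00, 10.39, 10.15 and 10.25, which are well separated although the PD98059 arrays spread over more than those with DMSO. It fell by 1.87 ± 0.11 (adjusted p = 2.8e-09), about 3.66-fold, against a fall of 0.98 in complete medium. A test of the difference between media is not given for IGFBP1.

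LIF, a cytokine of the interleukin-6 family, read 9.29, 9.30, 9.23 and 9.30 with DMSO and 7.74, 7.78, 7.79 and 7.78 with PD98059. It fell by 1.51 ± 0.045 (adjusted p = 1.76e-12). ITGA2, the collagen-binding integrin subunit, read 11.46, 11.40, 11.32 and 11.31 and 9.84, 9.91, 9.63 and 9.71 and fell by 1.60 ± 0.056 (adjusted p = 9.88e-12). Neither gene had overlapping arrays. The transporter family member SLC22A15 fell by 1.46, the RAS-related GTPase gene RASD1 by 1.35, MAB21L3 by 1.85 and TCIM by 1.38. The difference between media was called lower for each, at -1.21 for SLC22A15, -1.01 for MAB21L3, -1.01 for RASD1 and -0.74 for TCIM. In TCIM the DMSO array of replicate 3 lay below the others of its group, whose range was 0.57 units.

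**Figure D2:**
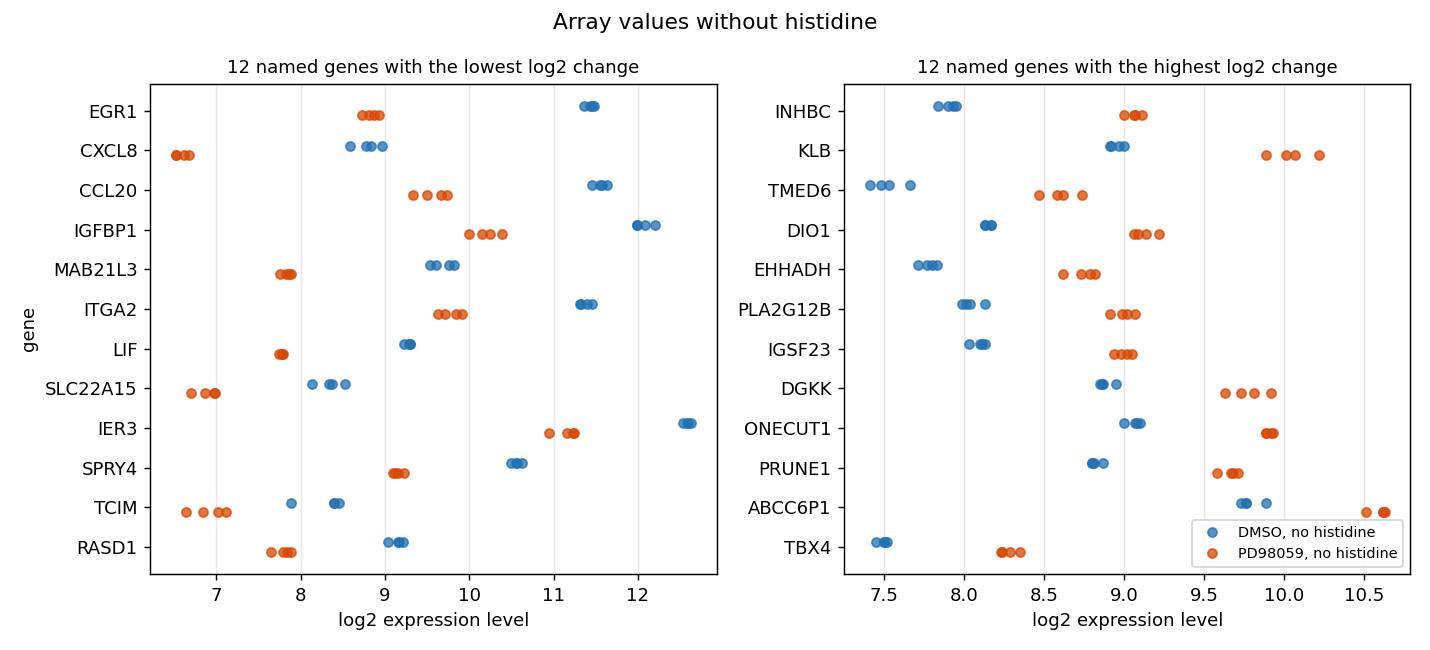
Log2 expression level (x axis) on each array without histidine for the 12 named genes with the lowest and the 12 with the highest change, DMSO in blue and PD98059 in orange. In each gene shown the 4 orange points lie apart from the 4 blue points, as the rule for naming them required.

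Most immediate-early transcription factors fell without histidine. Of 23 measured members 18 fell and 5 were not called, with a median change of -0.26, against 10.9% of all genes lower and a median of -0.006. In complete medium 9 fell. IER3, an early-response gene that restrains cell death, fell by 1.44 ± 0.057, from 12.58 ± 0.042 to 11.15 ± 0.13 (SD, n = 4 each). Of the AP-1 subunits, JUN fell by 0.93 ± 0.038, FOSL1 by 0.89 ± 0.033, JUNB by 0.88 ± 0.059 and FOS by 0.55 ± 0.042. KLF6, a zinc finger factor, fell by 0.82 ± 0.026. MYC fell by 0.31 ± 0.028.

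For most of the named early genes the effect was larger without histidine than in complete medium. The difference was -0.72 for JUN, -0.65 for JUNB, -0.57 for KLF6, -0.47 for FOS and -0.45 for FOSL1 (adjusted p from 2.44e-05 for FOSL1 to 9.25e-07 for JUN and 1.35e-07 for KLF6). FOS was at -0.07 in complete medium and was not called there (adjusted p = 0.335). For IER3 and MYC the difference was not called: IER3 fell by 1.23 and MYC by 0.33 in complete medium, and their differences were -0.21 and 0.02 (95% interval -0.06 to 0.10 for MYC, where intervals here and below are not adjusted for the number of genes). The 5 members not called were FOSB, EGR4, NR4A2, KLF4 and KLF2, from -0.09 for FOSB to -0.03 for KLF2. Members that stand alone or nearly alone in a direction of a list are named here and below after their values were seen. The counts of this list and those below stand beside 13.5% of all genes higher and 10.9% lower. In most lists most members had a group mean above the median of all values. A fit limited to genes above it still called 5472, 2973 higher and 2499 lower. The share called among such genes is thus larger than among all genes.

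ERK's feedback inhibitors also fell. Of 11 dual-specificity phosphatases 7 fell, 1 rose and 3 were not called (median -0.16). DUSP6, the cytoplasmic ERK phosphatase, read 9.82, 9.77, 9.70 and 9.77 with DMSO and 8.43, 8.60, 8.45 and 8.49 with PD98059, and fell by 1.27 ± 0.053. DUSP5, a nuclear ERK phosphatase, fell by 0.91 ± 0.044 and DUSP1, which acts on p38, JNK and ERK, by 0.69 ± 0.060, whereas DUSP9 rose by 0.15. Among 14 Sprouty, Spred and other feedback inhibitors 8 fell, 1 rose and 5 were not called (median -0.24). SPRY4 fell by 1.42 ± 0.041, SPRY1 by 0.74 ± 0.036, SPRED1 by 0.46 ± 0.043, SPRY2 by 0.25 ± 0.040, and ERRFI1, which inhibits the EGF receptor, by 0.42 ± 0.027. LRIG3 was the member that rose, by 0.54 ± 0.060, and at 0.09 it was not called in complete medium. A test of the difference between media is not given for LRIG3.

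These inhibitors did not share one pattern across media. The drug lowered DUSP5, DUSP1 and SPRY4 more without histidine, with differences of -0.50 (adjusted p = 0.000151), -0.68 (adjusted p = 0.000145) and -0.44 (adjusted p = 0.000223). It lowered DUSP6 and SPRED1 less without histidine, by 0.42 ± 0.076 (adjusted p = 0.00286) and 0.26 ± 0.061 (adjusted p = 0.0166), and the latter was not called with arrays shifted to the same median. DUSP6 fell by 1.70 in complete medium and SPRED1 by 0.73. For SPRY1 the difference of 0.12 was not called (95% interval 0.01 to 0.23).

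ETS transcription factors, several of which are ERK substrates or ERK-induced genes, fell in 10 of 15 cases, with 1 higher, 4 not called and a median of -0.13. ELK3 fell by 0.50 ± 0.037, ETS2 by 0.48 ± 0.027, ETV4 by 0.47 ± 0.036 and ETV5 by 0.46 ± 0.036, and ELF1 rose by 0.22. ETV5 read 9.65, 9.71, 9.65 and 9.68 with DMSO and 9.15, 9.25, 9.22 and 9.23 with PD98059 without histidine, against 9.48, 9.43, 9.47 and 9.42 and 8.41, 8.35, 8.23 and 8.36 in complete medium. Every DMSO array and every PD98059 array read higher without histidine than in complete medium, by less with DMSO than with PD98059. ETV5 fell by 1.12 in complete medium, and the difference was 0.66 ± 0.050 (adjusted p = 9.86e-07). For ETV4 the difference was 0.47 ± 0.050 (adjusted p = 3.6e-05), while ELK3 and ETS2 fell by 0.45 and 0.49 in complete medium, with 95% intervals of the difference of -0.15 to 0.07 and -0.08 to 0.09.

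**Figure D3:**
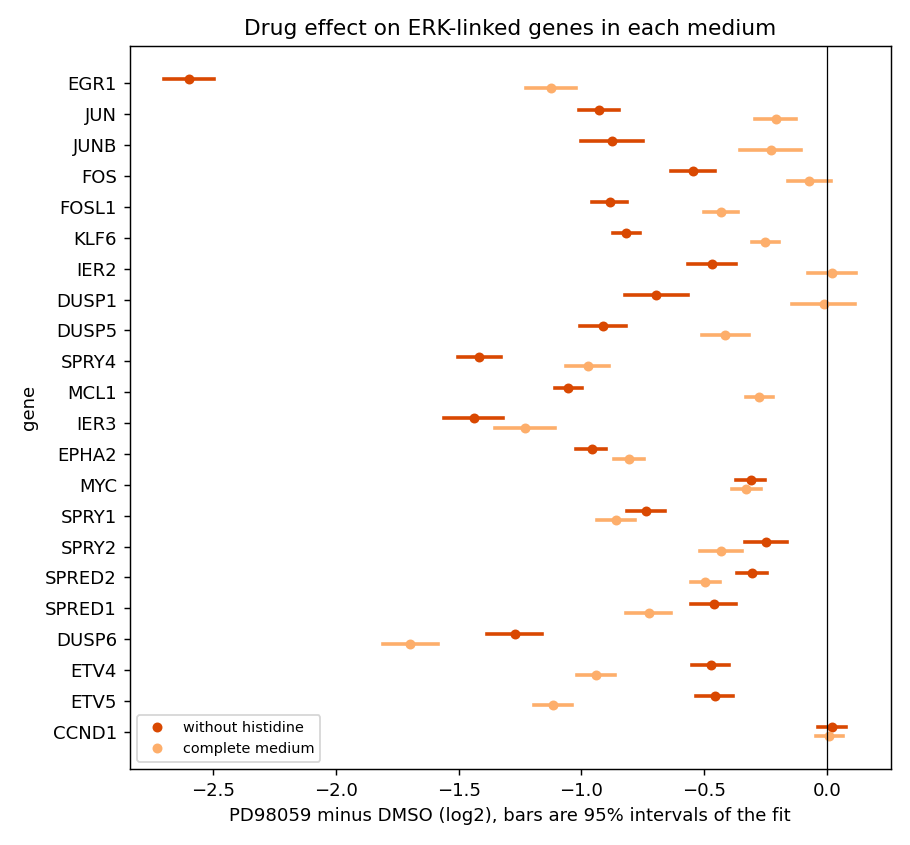
Log2 change with PD98059 (x axis) for 22 genes linked to ERK, without histidine (dark orange) and in complete medium (light orange), as points with 95% intervals of the fit. Genes from EGR1 to SPRY4 and MCL1 lie farther left without histidine, DUSP6, ETV4 and ETV5 lie farther left in complete medium, and the intervals of CCND1 include 0 in both.

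Over the 17 measured members of a list of MEK output genes 14 fell and 3 were not called (median -0.40). In complete medium 13 members of it fell (median -0.43). This list was chosen with earlier results of these data known and shares members such as EGR1, IER3 and DUSP6 with the lists above. The difference between media went lower for 5 members and higher for 4. PHLDA1 fell by 0.40 ± 0.024 and the receptor gene EPHA2 by 0.96 ± 0.029. The cyclin gene CCND1 was not called, at 0.02 (95% interval -0.04 to 0.08), and EPHA4 and LZTS1 were at -0.04 and -0.04. In the upstream cascade, of 15 RAS, RAF, MEK and ERK core genes 6 rose, 3 fell and 6 were not called. Of all genes 13.5% rose and 10.9% fell. The adaptor GAB1 rose by 0.57 ± 0.043 and the exchange factor SOS1 by 0.36 ± 0.055. The adaptor SHC1 fell by 0.37 ± 0.024, MAP2K1, which encodes MEK1, by 0.25 ± 0.032, and the phosphatase PTPN11 by 0.18. Without replicate 3 of PD98059 without histidine, 5 members of the cascade fell.

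Among EGF family ligands and receptors, EREG, which encodes epiregulin, fell by 1.12 ± 0.058 and HBEGF by 0.90 ± 0.046, and the EGF receptor gene EGFR by 0.24 ± 0.030. With EPHA2 these were the 4 lower members of 14, and 10 were not called. EREG was at -0.14 in complete medium and not called, and the difference was -0.98 ± 0.082 (adjusted p = 2.75e-06). For HBEGF it was -0.68 ± 0.065 (adjusted p = 9.2e-06). ERBB3, a coreceptor of this family, was at 0.02 (95% interval -0.03 to 0.08).

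Cytokine and chemokine genes fell in 11 of 24 cases, 1 rose and 12 were not called (median -0.09). Beside CXCL8, CCL20 and LIF, IL18 fell by 0.86 ± 0.054, IL11 by 0.49 ± 0.035 and CSF1, the macrophage growth factor, by 0.36 ± 0.025. Tumour necrosis factor TNF and interleukin-6 IL6, at -0.09 and -0.03, were not called, and CX3CL1, which was chosen after its value was seen, rose by 0.33 ± 0.043. LIF fell far less in complete medium, by 0.29, a difference of -1.21 ± 0.063 (adjusted p = 1.24e-08), and for IL18 the difference was -0.52 ± 0.077 (adjusted p = 0.000608).

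Of 15 NF-kB subunits, inhibitors and targets 9 fell, 2 rose and 4 were not called (median -0.16). ICAM1, the adhesion molecule bound by leukocyte integrins, read 11.34, 11.38, 11.31 and 11.39 with DMSO and 10.35, 10.59, 10.57 and 10.54 with PD98059, and fell by 0.84 ± 0.049. Its fall in complete medium was 0.75, and the difference of -0.10 was not called. TNFAIP3, an inhibitor of the pathway, fell by 0.34 ± 0.046, and the subunits NFKB1, NFKB2 and RELB by 0.31, 0.29 and 0.21. The members that rose were REL by 0.17 and BCL3 by 0.14, and REL was not called with arrays shifted to the same median.

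Genes of adhesion, matrix turnover and the cytoskeleton also moved mainly down. Of 18 integrins, laminins and adhesion molecules 9 fell, 3 rose and 6 were not called. After ITGA2, the syndecan gene SDC4 fell by 0.55 ± 0.025, ITGB5 by 0.39 ± 0.033 and ITGAV, its partner in the vitronectin receptor, by 0.31 ± 0.032. CDH1, which encodes E-cadherin, rose by 0.40 ± 0.028, against 0.15 in complete medium (difference 0.26, adjusted p = 0.000728). The other members that rose were LAMC1 by 0.18 and SDC1 by 0.13. SDC4 had risen by 0.13 with the drug in complete medium, so its difference was -0.69 ± 0.036 (adjusted p = 1.24e-08).

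In the plasminogen and matrix protease list 7 of 15 fell and 8 were not called. SERPINE2, a protease inhibitor, fell by 0.57 ± 0.023, TIMP1, an inhibitor of metalloproteinases, by 0.44 ± 0.033, the urokinase gene PLAU by 0.37 ± 0.024 and its receptor PLAUR by 0.35 ± 0.030. Of 14 YAP and TEAD targets 7 fell, 3 rose and 4 were not called. CCN1 fell by 0.95 ± 0.042, ANKRD1 by 0.69 ± 0.043, AXL by 0.55 ± 0.033 and CCN2 by 0.54 ± 0.047, while AJUBA, TEAD1 and ARHGEF17 rose by 0.21, 0.11 and 0.11. The pair CCN1 and CCN2, matricellular genes of 1 family, diverged between media: CCN1 fell by 0.29 and CCN2 by 1.06 in complete medium, which gave differences of -0.66 ± 0.060 and 0.52 ± 0.067 (adjusted p = 5.57e-06 and 0.000165). In the cytoskeleton list 10 of 16 fell and 6 were not called, with ZYX at -0.38, TUBB2A at -0.34 and TAGLN at -0.33. ACTB, at -0.04, was not called.

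Regulators of the amino acid response, the pathway that histidine loss is known to switch on, fell more often than they rose. Of 22 measured members 11 fell, 3 rose and 8 were not called (median -0.13), while in complete medium 4 fell and 6 rose. PPP1R15A, which encodes the GADD34 subunit that reverses eIF2 phosphorylation, read 10.39, 10.27, 10.23 and 10.39 with DMSO and 9.23, 9.44, 9.50 and 9.38 with PD98059. It fell by 0.93 ± 0.054, against -0.10 (not called) in complete medium. PPP1R15B, its constitutive counterpart, fell by 0.45 ± 0.031, the histone demethylase gene KDM7A by 0.84 ± 0.061, the lipoprotein receptor VLDLR by 0.75 ± 0.050, GADD45A by 0.62 ± 0.033 and ATF3, a stress-induced repressor, by 0.48 ± 0.045.

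Several inducible members were not called. DDIT3, which encodes CHOP, had a 95% interval of -0.10 to 0.09 for its change, and CEBPG and CEBPB were at -0.04 and -0.10, not called. The members that rose were NUPR1 by 0.39 ± 0.029, the GCN2 gene EIF2AK4 by 0.27 ± 0.049 and EIF2AK1 by 0.20. The difference between media was called lower for 12 of the 22 members and higher for 0 (limma, against 1 at an unadjusted p under 0.05), against 2.83% and 2.91% of all genes. It was -0.83 ± 0.077 for PPP1R15A (adjusted p = 6.54e-06) and -0.70 ± 0.070 for VLDLR (adjusted p = 1.68e-05). The sestrin gene SESN2, whose product restrains mTORC1 under stress, read 11.32, 11.35, 11.28 and 11.32 with DMSO and 10.81, 10.94, 10.96 and 10.86 with PD98059. It fell by 0.42 ± 0.038, although it rose by 0.25 in complete medium. A test of the difference between media is not given for SESN2.

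Enzymes that make amino acids and one-carbon units were split, with 5 of 17 lower, 4 higher and 8 not called (median -0.03). GOT1, the cytosolic aspartate aminotransferase, fell by 0.68 ± 0.026, CTH, which makes cysteine from cystathionine, by 0.48 ± 0.052, the asparagine synthetase gene ASNS by 0.31 ± 0.048 and the mitochondrial folate enzyme MTHFD2 by 0.22 ± 0.030. SHMT2 was the last of the lower members at -0.13. Glutamine synthetase GLUL rose by 0.26 ± 0.023 and SHMT1 by 0.19 ± 0.025, and PSPH and GOT2 by 0.10 and 0.07, both not called with arrays shifted to the same median. PSAT1 and PHGDH of serine synthesis were at -0.03 and 0.01, not called.

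Among 22 amino acid transporters 10 fell, 4 rose and 8 were not called (median -0.06). SLC7A11, the cystine carrier, fell by 0.61 ± 0.034, SLC7A1, a cationic amino acid carrier, by 0.44 ± 0.039 and its relative SLC7A2 by 0.31 ± 0.038. SLC6A14 fell by 0.54 ± 0.055 from a level of 5.77 ± 0.071 (SD, n = 4), below the array medians. SLC38A3, a glutamine and histidine carrier of hepatocytes, rose by 0.42 ± 0.027, and SLC38A4, SLC1A2 and SLC43A1 rose by 0.19, 0.16 and 0.14. The glycine carrier SLC6A9 was at 0.01 without histidine and rose by 0.39 in complete medium, a difference of -0.38 ± 0.049 (adjusted p = 0.000199).

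Cytosolic aminoacyl-tRNA synthetases fell in 11 of 19 cases, 2 rose and 6 were not called (median -0.09). The size of these changes was small, from -0.26 for SARS1 to -0.20 for WARS1 among the 5 largest, with -0.24, -0.24 and -0.24 for TARS1, HARS1 and CARS1. HARS1 charges the tRNA for histidine. The higher members, AARS1 at 0.08 and QARS1 at 0.09, were not called when the fit held only the 8 arrays without histidine.

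In the NRF2 list 12 of 20 members fell, with 1 higher and 7 not called (median -0.11). The lower members include the NRF2 gene itself, NFE2L2, at -0.16 and its regulator KEAP1 at -0.12. They also include SLC7A11, which is counted among the transporters above. GCLM and GCLC, the subunits of glutamate-cysteine ligase, fell by 0.62 ± 0.041 and 0.53 ± 0.030, the thioredoxin reductase gene TXNRD1 by 0.53 ± 0.023 and the bile pigment exporter ABCC2 by 0.32 ± 0.028. HMOX1, which encodes heme oxygenase, rose by 0.30 ± 0.039. Each of GCLM, GCLC and TXNRD1 fell more without histidine, with differences of -0.25, -0.32 and -0.27 (adjusted p = 0.0156, 0.000231 and 0.000113), and that of GCLM lost its call once array medians were equalised.

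In the autophagy and lysosome list 11 of 22 fell, 1 rose and 10 were not called, and 6 fell when the fit held only the 8 arrays without histidine. WIPI1 fell by 0.56 ± 0.034, MAP1LC3B, which encodes the autophagosome protein LC3B, by 0.43 ± 0.029, the factor TFE3 by 0.38 ± 0.034 and the cargo receptor SQSTM1 by 0.37 ± 0.024. MAP1LC3B was at 0.06 in complete medium, not called, with a difference of -0.49 ± 0.041 (adjusted p = 2.6e-06). RRAGC, which was chosen after its value was seen, rose by 0.09, and it was not called when any 1 array of the DMSO group without histidine was left out. Lysosomal LAMP1 and CTSD, at 0.02 and 0.05, were not called.

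The steepest change in the BCL2 family was in MCL1, which opposes apoptosis. MCL1 read 11.60, 11.61, 11.55 and 11.58 with DMSO and 10.53, 10.55, 10.55 and 10.50 with PD98059, and fell by 1.05 ± 0.026 (adjusted p = 3.83e-13). In complete medium it fell by 0.28, a difference of -0.78 ± 0.037 (adjusted p = 5.34e-09). The proapoptotic PMAIP1, which encodes NOXA and binds MCL1, fell by 0.81 ± 0.054, and antiapoptotic BCL2L1 by 0.39 ± 0.031. BMF and BCL2L11, which encodes BIM, are proapoptotic members and rose by 0.27 ± 0.041 and 0.13 ± 0.023. In all, 6 of 15 members fell, 2 rose and 7 were not called, against 10.9% of all genes lower and 13.5% higher. BAX was at 0.07. At an adjusted p under 0.01, 3 fell.

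Most death receptor and caspase genes fell. Of 13 measured members 9 fell, 2 rose and 2 were not called (median -0.26). TNFRSF21 fell by 0.66 ± 0.030, the TWEAK receptor TNFRSF12A by 0.58 ± 0.067 and the TRAIL receptors TNFRSF10B and TNFRSF10A by 0.48 ± 0.031 and 0.45 ± 0.032. TNFSF10, the TRAIL gene itself, rose by 0.56 ± 0.054 but from a level of 5.20 ± 0.074 (SD, n = 4), below the array medians, and FAS rose by 0.14. FADD and CASP9, at -0.01 and 0.03, were not called.

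Targets of p53 moved in both directions, with 8 of 16 higher, 5 lower and 3 not called (median 0.03). Among all genes 13.5% were higher and 10.9% lower. The kinase gene PLK3 fell by 0.82 ± 0.032, and with GADD45A and SESN2 it belongs to the members that stress also induces without p53. CDKN1A, which encodes p21, fell by 0.18 ± 0.037 and PLK2 by 0.26. The repair gene DDB2 rose by 0.74 ± 0.029, SESN1 by 0.61 ± 0.052 and XPC by 0.29 ± 0.025. MDM2, at -0.08, was not called.

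Growth-linked genes fell in 1 branch and rose in another. Ribosome biogenesis genes fell in 23 of 28 cases and 5 were not called (median -0.18), and 23 fell in complete medium (median -0.20). RRP12 fell by 0.45 ± 0.027, DDX21 by 0.43 ± 0.035, BYSL by 0.37 ± 0.035 and RRP9 by 0.33 ± 0.040, while the nucleolar genes NPM1 and FBL were at -0.05 and 0.02, not called. The difference between media was called for 2 members, lower for RRP12 at -0.20 and higher for POLR1B at 0.18. In the MYC, MAX and MXD network 6 of 12 fell, 1 rose and 5 were not called. MXD1, a MAX partner that opposes MYC, read 10.84, 10.81, 10.77 and 10.74 with DMSO and 9.78, 9.80, 9.76 and 9.79 with PD98059. It fell by 1.01 ± 0.030, against -0.08 (not called) in complete medium, and a test of the difference is not given. The glucose sensor gene MLXIPL rose by 0.41 ± 0.042.

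Most DNA replication genes rose. Of 29 measured members 20 rose, 1 fell and 8 were not called (median 0.15), against 13.5% of all genes higher, and 4 rose in complete medium (median 0.05), or 10 there in a fit without replicate 3 of PD98059 without histidine. PRIM1 and POLA2, subunits of the DNA polymerase alpha-primase, rose by 0.48 ± 0.049 and 0.46 ± 0.033, the origin factor ORC1 by 0.36 ± 0.041, the helicase subunit MCM3 by 0.30 ± 0.024 and the polymerase epsilon subunit POLE2 by 0.29 ± 0.052. POLA2 read 8.06, 8.13, 8.11 and 8.15 with DMSO and 8.59, 8.60, 8.49 and 8.61 with PD98059, and its level of 8.57 ± 0.056 (SD, n = 4) remained below the 8.70 ± 0.052 (SD, n = 4) of DMSO in complete medium. RRM2, a ribonucleotide reductase subunit chosen after its value was seen, fell by 0.24 ± 0.022. The difference was called higher for 10 members, among them 0.37 for POLA2, 0.28 for ORC1 and 0.23 for MCM3.

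Most mitotic genes and G1 regulators were not called, and the shares of all genes were 13.5% higher and 10.9% lower. All measured members had a group mean above the median of all values, where the share called is larger than among all genes. Of 26 mitosis and kinetochore genes 6 rose, 4 fell and 16 were not called (median -0.01), with KIF11 at 0.31, CDC25C at 0.27 and KIF20A at 0.22, and CCNB1, PTTG1, TPX2 and BUB3 at -0.16, -0.16, -0.10 and -0.09. PLK1 and AURKA at -0.05 and -0.01, were not called. Of 20 G1 cyclins, CDKs and inhibitors 5 rose, 3 fell and 12 were not called. CDKN2B, which encodes the inhibitor p15, fell by 0.54 ± 0.046 and E2F3 by 0.52 ± 0.043. CDKN1A was the remaining lower member. RBL1, which encodes p107, rose by 0.36 ± 0.061 and CDK6 by 0.21 ± 0.036, beside RBL2, CCNE1 and E2F2 at 0.21, 0.18 and 0.09.

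**Figure D4:**
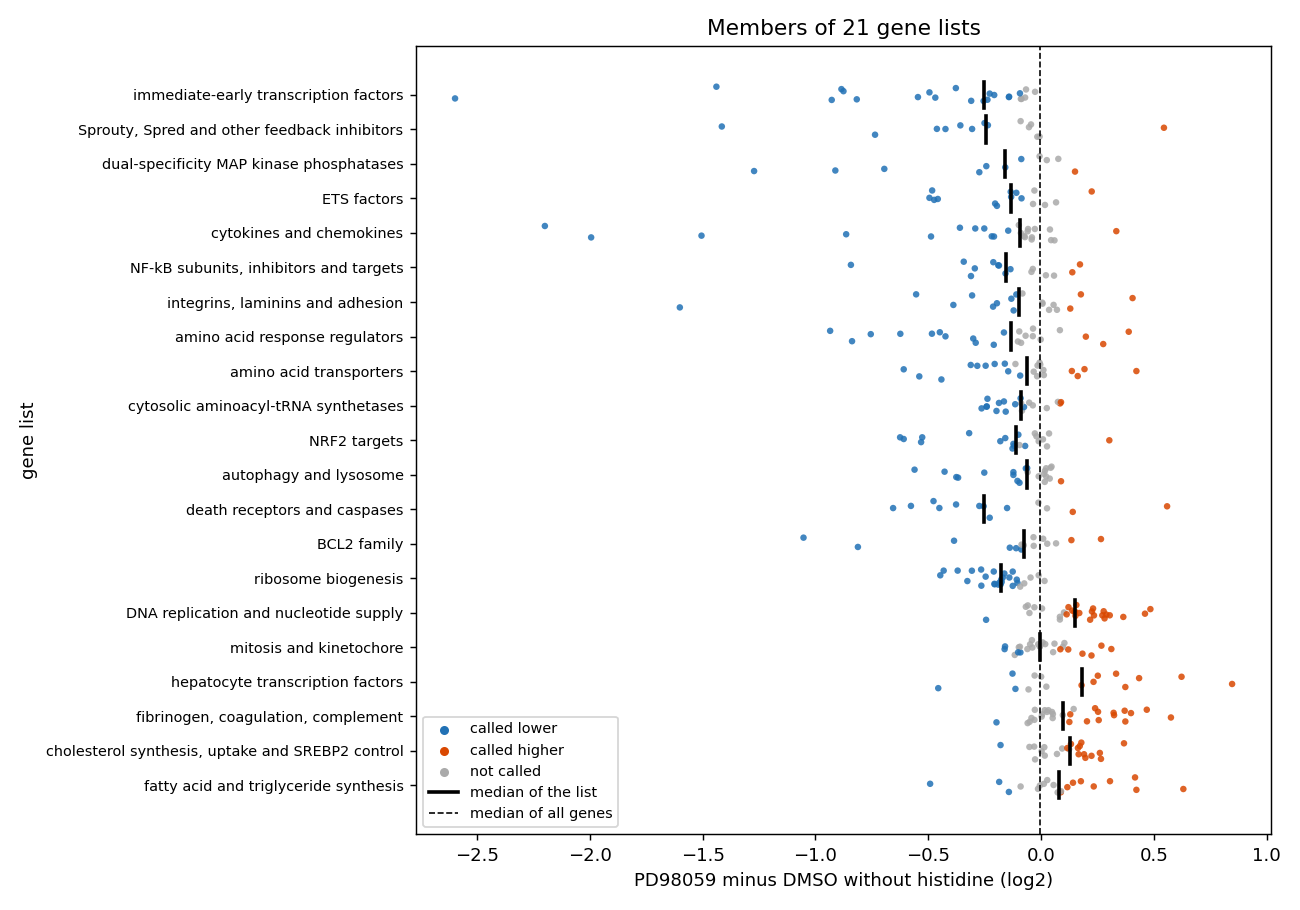
Log2 change with PD98059 without histidine (x axis) for each measured member of 21 gene lists (rows), called lower in blue, called higher in orange and not called in grey, with the list median as a black bar and the median of all genes, -0.006, as a dashed line. Lists of early genes, feedback inhibitors and death receptors have medians left of the dashed line, and those of DNA replication and hepatocyte factors lie to its right.

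At the other end, 12 genes were named for the highest changes, and INHBC led them. INHBC, the liver-expressed inhibin beta C subunit, went from 7.90 ± 0.050 with DMSO to 9.06 ± 0.044 with PD98059 (SD, n = 4 each), without overlap of the arrays. It rose by 1.16 ± 0.039 (2.23-fold, adjusted p = 8.04e-12), against 0.83 in complete medium (difference 0.32, adjusted p = 0.00215). KLB, which encodes beta-klotho, the coreceptor for FGF19 and FGF21, went from 8.95 ± 0.043 to 10.05 ± 0.14 (SD, n = 4 each) and rose by 1.09 ± 0.049. Its difference from complete medium, 0.16, was not called. DIO1, the deiodinase that activates thyroid hormone, read 8.13, 8.13, 8.17 and 8.17 with DMSO and 9.22, 9.09, 9.06 and 9.14 with PD98059, and rose by 0.97 ± 0.034. EHHADH, a peroxisomal fatty acid oxidation enzyme, rose by 0.96 ± 0.046, and the liver factor ONECUT1 (HNF6) by 0.85 ± 0.036.

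Other genes completed the highest 12. PLA2G12B, needed for lipoprotein secretion in mice, rose by 0.96, TMED6 by 1.08, IGSF23 by 0.91, the diacylglycerol kinase gene DGKK by 0.89, PRUNE1 by 0.84 and TBX4 by 0.79. The pseudogene ABCC6P1 rose by 0.81, but near-identical copies exist and its value is uncertain. For EHHADH the drug effect was 0.45 in complete medium, a difference of 0.51 ± 0.065 (adjusted p = 0.000169). The PD98059 and DMSO arrays overlapped in none of the 12, which the naming rule required, and 23.3% of all genes had arrays that did not overlap.

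Hepatocyte transcription factors rose in 8 of 15 cases, 3 fell and 4 were not called (median 0.18). After ONECUT1, the pioneer factor FOXA1 rose by 0.62 ± 0.029, GATA6 by 0.43 ± 0.032, CEBPA by 0.37 ± 0.044 and GATA4 by 0.33 ± 0.028. FOXA2 and NR5A2 were not called, with 95% intervals of -0.06 to 0.06 and -0.05 to 0.09. NR0B2, which encodes the repressor SHP, fell by 0.46 ± 0.068, HNF4G by 0.13 and ONECUT2 by 0.11, and without replicate 4 of PD98059 without histidine 1 of these falls was called. NR0B2 fell by 0.94 in complete medium, a difference of 0.48 ± 0.096 (adjusted p = 0.00666).

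Secreted liver proteins rose more often than they fell. Of 29 fibrinogen, acute phase, coagulation and complement genes 13 rose, 1 fell and 15 were not called (median 0.10). The fibrinogen chains FGG, FGA and FGB rose by 0.57 ± 0.048, 0.40 ± 0.030 and 0.37 ± 0.036, and the heme carrier HPX by 0.47 ± 0.039. SERPINA3, chosen after its value was seen, fell by 0.20 ± 0.055, and 3 members fell without replicate 3 of PD98059 without histidine. Of 12 apolipoprotein genes 5 rose, 2 fell and 5 were not called: the lipid transfer gene MTTP rose by 0.50 ± 0.071, APOC3 by 0.37 ± 0.054 and APOA1, APOA5 and APOH by 0.26, 0.20 and 0.14, and APOM fell by 0.39 ± 0.051 and APOA2 by 0.15 ± 0.026. APOB was at -0.01 (95% interval -0.07 to 0.05).

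Enzymes of drug and bile acid metabolism moved in both directions. Of 18 cytochrome P450 and conjugation enzymes 7 rose, 1 fell and 10 were not called, with the steroid sulfotransferase SULT2A1 at 0.62 ± 0.041 and CYP2B6 lower at -0.26 ± 0.042. The bile acid list had 4 of 17 higher, 3 lower and 10 not called, against 13.5% of all genes higher and 10.9% lower. The bile acid reductase AKR1D1 rose by 0.45 ± 0.043, CYP27A1 and BAAT by 0.21 and 0.18 beside KLB, and the basolateral exporter subunit SLC51B fell by 0.67 ± 0.034 beside ABCC2 and NR0B2. CYP7A1, the rate-limiting enzyme of bile acid synthesis, was at 0.08, not called, from a level of 3.86 ± 0.079 (SD, n = 4), below the array medians.

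Cholesterol genes rose in 12 of 22 cases, 1 fell and 9 were not called (median 0.13). HSD17B7 rose by 0.37 ± 0.050, although a pseudogene shares its sequence and the value is uncertain, the lanosterol synthase gene LSS by 0.27 ± 0.031 and TM7SF2 by 0.26 ± 0.032. The synthase HMGCS1 was not called, at -0.03 (95% interval -0.10 to 0.05), and STARD4, chosen after its value was seen, fell by 0.18, a call lost once array medians were equalised. The difference between media was called for 0 of the 22 members (limma), with 2 higher and 3 lower at an unadjusted p under 0.05. For LSS the level with PD98059 and no histidine, 9.56 ± 0.021 (SD, n = 4), stayed below the 10.40 ± 0.036 (SD, n = 4) of DMSO in complete medium.

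Fatty acid and triglyceride synthesis genes rose in 9 of 20 cases, 3 fell and 8 were not called (median 0.08). PNPLA3, a lipid droplet hydrolase, rose by 0.63 ± 0.029, ACACB, the mitochondrial acetyl-CoA carboxylase, by 0.42 ± 0.028 and DGAT2, the last step of triglyceride synthesis, by 0.42 ± 0.033. LPIN2, ACSL4 and SREBF1 fell by 0.49, 0.19 and 0.14, and FASN was at 0.01. In the PPARA and fatty acid oxidation list 6 of 18 rose, 3 fell and 9 were not called. Of all genes 13.5% rose and 10.9% fell. The liver factor CREB3L3 rose by 0.66 ± 0.033, and the lipid droplet protein PLIN2 fell by 0.50 ± 0.027, VNN1 by 0.41 ± 0.049 and ACADVL by 0.22. CPT1A, the gate of mitochondrial oxidation, was at 0.03 (95% interval -0.03 to 0.09).

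Growth factor and stress hormone genes were mixed. In the transforming growth factor beta list 4 of 21 rose, 8 fell and 9 were not called. The shares of all genes were 13.5% higher and 10.9% lower. The activin antagonist FST fell by 1.17 ± 0.046, TGFB1 by 0.63 ± 0.031 and its receptor TGFBR2 by 0.58 ± 0.033, and HAMP, which encodes the iron hormone hepcidin, rose by 0.76 ± 0.045. The other higher members were INHBC, SMAD6 at 0.36 and SMAD7 at 0.21. Of 13 stress-induced secreted factors 5 fell and 8 were not called. EDN1, which encodes endothelin-1, fell by 1.18 ± 0.054, GDF15 by 0.74 ± 0.039, VEGFA by 0.23 ± 0.023, and SPP1 and ADM by 0.19 and 0.18. FGF21 was at -0.08 and STC2 at -0.09, not called.

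Genes of glucose uptake and its first steps were among those that fell. In the glycolysis and hypoxia list 10 of 24 fell, 2 rose and 12 were not called (median -0.03). HK2, an inducible hexokinase, fell by 0.85 ± 0.045, the glucose transporter gene SLC2A1 by 0.57 ± 0.027 and PFKP by 0.42 ± 0.029, while GAPDH and LDHA were not called, with 95% intervals of -0.06 to 0.04 and -0.05 to 0.08. BNIP3 and SLC2A3 rose by 0.15 and 0.08. HK2 and SLC2A1 fell by 1.01 and 0.62 in complete medium, and their differences of 0.16 and 0.05 were not called. Of 8 MondoA and ChREBP targets and arrestin-domain genes 4 fell, 2 rose and 2 were not called. TXNIP fell by 0.54 ± 0.039 and ARRDC4 by 0.52 ± 0.059, and ARRDC2 and HBP1 by 0.30 and 0.20, while ARRDC3 and PKLR rose by 0.19 and 0.14.

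Of 19 gluconeogenic, insulin signalling and FOXO target genes 5 rose, 3 fell and 11 were not called, against 13.5% of all genes higher and 10.9% lower. Without replicate 3 of PD98059 without histidine 5 fell. SGK1, a kinase induced by stress and steroids, rose by 0.49 ± 0.027. Its levels were 6.87, 6.92, 6.87 and 6.93 with DMSO and 7.39, 7.40, 7.33 and 7.42 with PD98059, and the latter lay near the 7.56, 7.50, 7.52 and 7.52 of DMSO in complete medium, where SGK1 fell by 0.08, a call lost when any 1 DMSO array was left out. The difference was 0.57 ± 0.038 (adjusted p = 1.64e-07). Beside IGFBP1, FOXO1 and FOXO3 fell by 0.19 and 0.16, and IRS1 rose by 0.22, PIK3R1 by 0.19, PIK3R3 by 0.17 and FOXO4 by 0.12. PCK1 and G6PC1, the gluconeogenic enzymes, were at -0.04 and 0.04, not called.

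In the unfolded protein response list most members were not called. Of 22 ATF6 and XBP1 targets and folding genes 8 fell, 2 rose and 12 were not called (median -0.06), and between 0 and 5 rose in the alternatives. SEL1L and CALR were those that rose, by 0.12 and 0.08. ERN1, which encodes the sensor IRE1, fell by 1.12 ± 0.053, ATF6 by 0.31 ± 0.029 and XBP1 by 0.25 ± 0.027. ERN1 was at -0.15 in complete medium, not called, and the difference was -0.97 ± 0.075 (adjusted p = 9.99e-07). The chaperone HSPA5 was not called, with a 95% interval of -0.08 to 0.05. Of 14 cytosolic heat shock genes 1 rose, 3 fell and 10 were not called, against 13.5% of all genes higher and 10.9% lower, with HSPA4L at 0.35, HSF1, DNAJB1 and BAG3 at -0.15, -0.11 and -0.10, and HSP90AA1 at -0.02, not called.

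Clock genes fell in 6 of 18 cases, 4 rose and 8 were not called, against 10.9% of all genes lower and 13.5% higher. The repressor gene BHLHE40 fell by 0.65 ± 0.050, NR1D1, which encodes REV-ERB alpha, by 0.50 ± 0.034 and CRY1 by 0.37 ± 0.048, whereas BMAL1, DBP, PER3 and CRY2 rose by 0.28, 0.27, 0.18 and 0.11. Of 14 WNT feedback and beta-catenin targets 6 rose, 1 fell and 7 were not called. The ubiquitin ligase RNF43 rose by 0.50 ± 0.031 and the pseudoreceptor BAMBI by 0.22 ± 0.030, and DKK4 fell by 0.29 ± 0.034. BAMBI fell by 0.26 in complete medium, so its difference was 0.48 ± 0.043 (adjusted p = 5.43e-06), and LGR5, at -0.01 without histidine, fell by 0.38 there (difference 0.37, adjusted p = 0.000329).

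Biliary and progenitor markers fell in 6 of 12 cases, 1 rose and 5 were not called. KRT23 fell by 0.79 ± 0.037, SOX4 by 0.76 ± 0.039 and the keratin genes KRT18 and KRT19 by 0.32 and 0.20, CD24 rose by 0.17, and SOX9 and AFP, at 0.06 and 0.08, were not called. Between 0 and 4 of these markers rose in the alternatives. PD98059 is also known to bind the aryl hydrocarbon receptor. Of that receptor and its targets, 8 measured, 1 rose, 3 fell and 4 were not called. Among all genes 13.5% rose and 10.9% fell. AHR itself fell by 0.49 ± 0.043 and its partner ARNT rose by 0.23 ± 0.029. The marker target CYP1A1 fell by 0.17 ± 0.035 without histidine and rose by 0.32 ± 0.035 in complete medium, a difference of -0.49 ± 0.050 (adjusted p = 1.68e-05). NQO1, which NRF2 also controls, fell by 0.07. CYP1B1 and TIPARP were at -0.03 and 0.03, not called.

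Calls of small changes near the threshold depended on the settings. Without histidine, AARS1, ARHGEF17, BAAT, BAG3, BUB3, CALR, CD24, E2F2, GOT2, HNF4G, NQO1, ONECUT2, PSPH, QARS1, RBL2, REL, RRAGC, SEL1L, SLC2A3, STARD4, TEAD1 and TPX2 each lost their call in at least 1 alternative, as did the differences between media of GCLM, POLR1B and SPRED1.

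The drug effect was also unequal between media in genes outside these groups. RND1, whose product loosens actin stress fibres, read 8.82, 8.78, 8.72 and 8.82 with DMSO and 7.86, 7.91, 8.01 and 7.94 with PD98059 without histidine, against 7.23, 7.18, 7.44 and 7.35 and 7.68, 7.73, 7.73 and 7.76 in complete medium. It fell by 0.86 ± 0.048 in the former and rose by 0.42 ± 0.048 in the latter, a difference of -1.28 ± 0.068 (adjusted p = 1.56e-08). The 4 groups thus did not overlap, and PD98059 brought the levels of the 2 media closer together. LURAP1L fell by 1.04 ± 0.061 without histidine and was at 0.04 in complete medium, not called (difference -1.08, adjusted p = 1.53e-06). In the other direction, TIGD2 rose by 0.69 ± 0.084 and was at 0.08 in complete medium, not called (difference 0.61, adjusted p = 0.0055), and the noncoding gene MIMT1 rose by 0.75 ± 0.077 against 0.24 (difference 0.51, adjusted p = 0.0108), where the value in complete medium lost its call when any 1 array of that medium was left out.

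**Figure D5:**
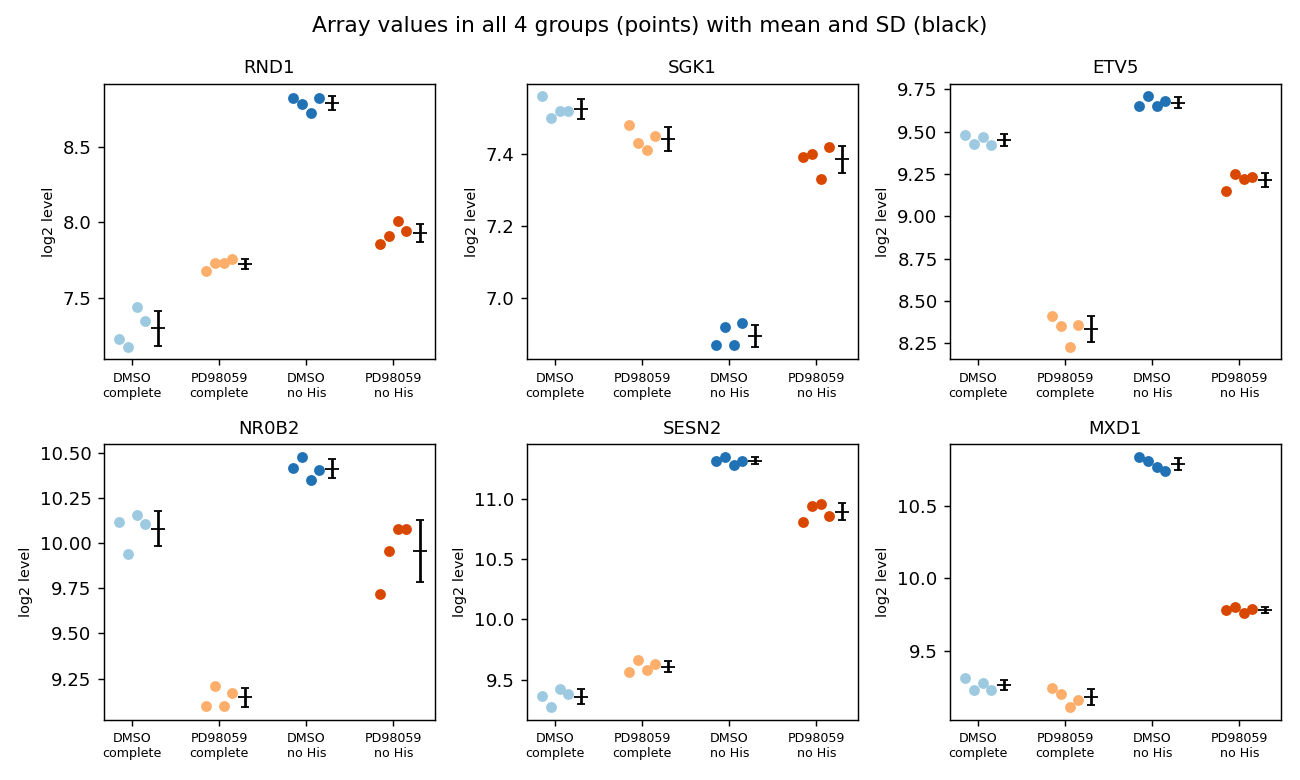
Log2 expression level (y axis) of 6 genes on each array of the 4 groups, with mean and SD in black. RND1 and SESN2 rose with PD98059 in complete medium and fell without histidine, SGK1 rose without histidine, ETV5 and NR0B2 fell more in complete medium, and MXD1 fell without histidine, where its DMSO level was higher.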

How the data were processed

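RNA of 16 HepG2 cultures was measured on 1-colour microarrays. The deposited table holds 1 log2 value per probe set and array, and the submitters' processing notes name RMA, Partek 6.6 and hg19. Each row was taken as already background-corrected and normalized, so no further normalization was applied. Of 70459 rows, 23780 had 1 gene symbol, 1543 had several and 45136 were unnamed, and 21496 of those with 1 symbol were matched by Entrez identifier. Where a symbol had several rows (479 symbols), the one highest on average over all arrays stood for the gene, giving 22464 genes.

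All 16 arrays entered 1 limma fit (limma 3.58.1, R 4.3.3) with a term per group, moderated variances and Benjamini-Hochberg adjustment, without a replicate block. The number of arrays limits the precision, and the median standard error of a change was 0.04 on the log2 scale. Replicates correlated at 0.996 to 0.998 within groups and no columns were identical. The fit was tested on simulated data with far fewer changed genes than were called here. Planted changes of 0.2 and 0.4 log2 units without histidine were recovered in 62.4% and 93.4% of cases. For the difference between media these shares were 31.2% and 80%. A difference that was not called can therefore still be of that size.

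The members and gene lists were chosen with earlier results of these data known. Named genes were, for each direction, the 12 with the largest called change without overlap between groups, the 6 with the largest called difference between media, up to 6 called members of each list with the largest change, and 12 fixed ERK targets. Alternatives changed the variance model, the arrays in the fit, the normalization, the filter on dim genes, the row kept per gene, array weights, a replicate block, the threshold and each array in turn. Motifs were searched in RefSeq promoters (GRCh38.p14).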

Additional observations from a re-analysis of the deposited data

Results flagged for a closer look

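In 49 of 766 sets of 4 arrays, 1 set for each printed gene and group, 1 array stood apart, meaning that its gap to the nearest array took more of the range of the group than Dixon's 95% critical value allows. Chance gives this in about 1 in 20 sets. Of these, 25 were in PD98059 without histidine, and replicate 3 was the array that stood apart in 19 of them, while 13 were in DMSO without histidine and 11 in complete medium. The cause was not tested, and the counts over all genes without replicate 3 stand beside the results.

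Replicate 1 of PD98059 without histidine stood apart for ABCC6P1, APOM and MLXIPL, with gaps of 0.898, 0.866 and 0.842 of the range, in that order. Replicate 2 of PD98059 without histidine stood apart for KLF6 and SLC51B, with gaps of 0.898 and 0.933 of the range, in that order. Replicate 3 of PD98059 without histidine stood apart for AFP, APOH, ARRDC2, BUB3, CRY1 and DDIT3, with gaps of 0.856, 0.895, 0.933, 0.853, 0.938 and 0.829 of the range, in that order. Replicate 3 of PD98059 without histidine also stood apart for FASN, FGG, HMOX1, LDHA, MTTP and NPM1, with gaps of 0.86, 0.833, 0.898, 0.869, 0.832 and 0.983 of the range, in that order. Replicate 3 of PD98059 without histidine also stood apart for PKLR, PLAU, POLA2, POLE2, STARD4 and TAGLN, with gaps of 0.88, 0.966, 0.84, 0.866, 0.947 and 0.929 of the range, in that order. Replicate 3 of PD98059 without histidine also stood apart for TPX2, with a gap of 0.835 of the range. Replicate 4 of PD98059 without histidine stood apart for CCND1, with a gap of 0.831 of the range. Replicate 1 of DMSO without histidine stood apart for CCNE1, CREB3L3 and NFKB2, with gaps of 0.874, 0.846 and 0.932 of the range, in that order. Replicate 2 of DMSO without histidine stood apart for PRIM1 and RBL1, with gaps of 0.909 and 0.871 of the range, in that order. Replicate 3 of DMSO without histidine stood apart for DUSP1, MAP2K1, PER3 and TCIM, with gaps of 0.887, 0.835, 0.897 and 0.862 of the range, in that order. Replicate 4 of DMSO without histidine stood apart for APOA2, PNPLA3, SHMT2 and TM7SF2, with gaps of 0.928, 0.926, 0.854 and 0.894 of the range, in that order. Replicate 2 of DMSO in complete medium stood apart for MAB21L3, MCM3, MIMT1, ORC1, RASD1 and SLC22A15, with gaps of 0.853, 0.98, 0.88, 0.842, 0.848 and 0.861 of the range, in that order. Replicate 2 of DMSO in complete medium also stood apart for SPRY1, with a gap of 0.925 of the range. Replicate 4 of DMSO in complete medium stood apart for SDC4, with a gap of 0.977 of the range. Replicate 1 of PD98059 in complete medium stood apart for MAB21L3, with a gap of 0.89 of the range. Replicate 4 of PD98059 in complete medium stood apart for TCIM and TXNRD1, with gaps of 0.857 and 0.853 of the range, in that order.

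The drug effect without histidine differed from that in complete medium (limma, adjusted p under 0.05 for the difference of the effects) for the genes below, given as the log2 effect without histidine minus that in complete medium. Only genes whose difference is printed above are listed, so the ranking is partial. MXD1, IGFBP1 and SESN2 are among the genes left out. The lowest were -1.52 for CXCL8, -1.47 for EGR1, -1.28 for RND1, -1.21 for LIF, -1.21 for SLC22A15 and -1.08 for LURAP1L. Lower values followed, at -1.01 for MAB21L3, -1.01 for RASD1, -0.98 for EREG, -0.97 for ERN1, -0.83 for PPP1R15A and -0.78 for MCL1. Then came -0.74 for TCIM, -0.72 for JUN, -0.70 for VLDLR, -0.69 for SDC4, -0.68 for HBEGF and -0.68 for DUSP1. Further lower values were -0.66 for CCN1, -0.65 for JUNB, -0.57 for KLF6, -0.52 for IL18, -0.50 for DUSP5 and -0.49 for CYP1A1. Next were -0.49 for MAP1LC3B, -0.47 for FOS, -0.45 for FOSL1, -0.44 for SPRY4, -0.38 for SLC6A9 and -0.32 for GCLC. The list went on with -0.27 for TXNRD1, -0.25 for GCLM and -0.20 for RRP12. In the opposite direction the difference was 0.66 for ETV5, 0.61 for TIGD2, 0.57 for SGK1, 0.52 for CCN2, 0.51 for EHHADH and 0.51 for MIMT1. Higher values also included 0.48 for NR0B2, 0.48 for BAMBI, 0.47 for ETV4, 0.42 for DUSP6, 0.37 for POLA2 and 0.37 for LGR5. Then followed 0.32 for INHBC, 0.28 for ORC1, 0.26 for SPRED1, 0.26 for CDH1, 0.23 for MCM3 and 0.18 for POLR1B.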

How the results depend on the processing

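Without histidine, the counts of called genes stayed within 1.5 times their value under each alternative run that kept all arrays and the threshold. Leaving out 1 array in turn gave 4857 to 7316 called, 2584 to 3756 higher, 2157 to 3560 lower, and 51 to 79 higher and 122 to 138 lower by at least 1.5-fold. In complete medium these ranges were 2579 to 4285, 1274 to 2301, 1159 to 1984, 13 to 21 and 44 to 49, and for the difference between media 916 to 3145, 401 to 1747, 478 to 1398, 1 to 9 and 38 to 44. Leaving out replicate 3 of PD98059 without histidine gave the highest of these counts without histidine and for the difference, except for those lower by at least 1.5-fold. It moved 16 of 184 list counts by more than 1.5 times. Array weights gave 5920 calls in complete medium, 3151 higher and 2769 lower, and 4615 differences between media, 2363 higher and 2252 lower, with 10 at least 1.5-fold higher. At an adjusted p under 0.01 the counts were 2018, 1054 and 964 in complete medium and 592, 252 and 340 for the difference. Arrays shifted to the same median gave 782 differences, 321 of them higher. The cause was not tested. Of the gene values printed as called, 22 of 272 without histidine, 2 of 31 in complete medium and 3 of 51 differences lost their call under some alternative, and 0 changed sign. Replicate numbers shared between groups were not treated as pairs. Without histidine, deviations of arrays with the same number correlated at -0.051 to 0.427, and with different numbers at -0.41 to 0.209. The highest values, 0.427 and 0.263, were of replicates 3 and 2 of both groups. In complete medium the ranges were -0.223 to 0.2 and -0.299 to 0.343. A fit with the replicate number as a block called 5801 genes without histidine and 1492 differences between media. Whether arrays of the same number were handled together was not tested.

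All values come from 1 cell line, 1 dose, 1 time point and 4 arrays per group. The table reports relative abundance per array, so a change of total RNA per cell is not measured. Probe sets without a gene symbol, or with several, were not analysed here, and protein or phosphorylation of ERK was not measured in these files. The inhibitor was not compared with another MEK inhibitor, so its effects on other targets cannot be told apart from those of MEK inhibition. The filter on dim genes left 5472 calls without histidine.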
